A study of Mus musculus with 5 samples.

Results

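The neutrophils of Renca tumours were 931 barcodes of 52408 kept barcodes in 5 single-cell libraries. A barcode is the tag of 1 droplet, and a UMI is 1 captured RNA molecule. Barcodes were kept at 500 or more UMIs, 300 or more genes and at most 10% mitochondrial UMIs. The members were chosen by the measured UMIs of these marker genes. A kept barcode was called a neutrophil when it held at least 10 UMIs of S100a8 and S100a9 together and at least 2 of Csf3r, Cxcr2, Retnlg and Il1r2 together. It could hold at most 2 UMIs of the macrophage genes C1qa, C1qb and C1qc and at most 1 of the T cell genes Cd3e, Cd3d and Cd3g. The rule took 153 barcodes in PD1+CTLA4, 328 in PD1+CD40, 270 in CD40+CTLA4, 63 in Triplet and 117 in PBS.

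Renca is a mouse renal cortical adenocarcinoma line, implanted here subcutaneously in Balb/c hosts whose labelled genotype is WT. From day 10 the mice received 2 intraperitoneal treatments of PBS or of antibodies at 200 µg each, and tumours were taken 24 hours after the last. The antibodies were αPD-1 (clone RMP1-14) and αCTLA-4 (9H10), both of which block brakes on T cell activation, and αCD40 (FGK4.5/FGK45), an agonist of a receptor on myeloid and B cells. The PD1+CTLA4 group had αPD-1 and αCTLA-4, PD1+CD40 had αPD-1 and αCD40, CD40+CTLA4 had αCD40 and αCTLA-4, and Triplet had all 3. Live cells were sorted into T cells, other immune cells and CD45-negative cells. The fractions were mixed 2:1:1 from 3 mice in equal parts, and 10000 cells were loaded, giving 1 pooled library per group. Kept barcodes numbered 16884 in PD1+CD40 and 16389 in CD40+CTLA4, more than the cells loaded, so not all of them can be separate cells. Their median depth was 1422 and 1827 UMIs, against 4779 in PD1+CTLA4, 13124 in Triplet and 8146.5 in PBS. The neutrophil medians of these pairs, 1096 and 1262 UMIs, were as low. How many neutrophil barcodes there are not cells, and their part in the comparisons, was not tested. There were no replicates, so no difference could be tested, and every interval covers counting error only. All 3 comparisons with PD1+CTLA4 use the same PD1+CTLA4 library, so their values are given side by side and are not independent.

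Neutrophils are short-lived granulocytes that leave the bone marrow under the control of G-CSF, whose receptor is Csf3r, and enter tissue along chemokines that bind Cxcr2. They carry little RNA and much S100A8 and S100A9, calcium-binding proteins of the cytosol. Type I interferons act on them through a receptor that activates a transcription factor complex, and this complex binds the interferon-stimulated response element in front of antiviral genes. In tumours, neutrophils are known both for killing and for suppressing T cells.

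The promoters of 4 interferon-stimulated genes are shown, chosen among those that hold the stretch marked in capitals. Their transcripts were at least 2-fold higher under 4000 UMIs in both αCD40 pairs than in PD1+CTLA4. Herc6 and Irf7, which were also higher there, held no such stretch and are not printed. Each is the 250 bases before the gene's start in RefSeq (build GRCm38.p6), written 5′ to 3′ on the strand of the gene. Capitals mark GAAA, any 2 bases and GAAA again, the core of the interferon-stimulated response element, or its reverse complement TTTC, any 2 bases and TTTC where the core lies on the other strand. Isg15 lies at chr4:156200819-156201068 on the minus strand, Ifit1 at chr19:34640639-34640888 on the plus strand, Ifit3 at chr19:34583279-34583528 on the plus strand and Rsad2 at chr12:26456453-26456702 on the minus strand.
Isg15: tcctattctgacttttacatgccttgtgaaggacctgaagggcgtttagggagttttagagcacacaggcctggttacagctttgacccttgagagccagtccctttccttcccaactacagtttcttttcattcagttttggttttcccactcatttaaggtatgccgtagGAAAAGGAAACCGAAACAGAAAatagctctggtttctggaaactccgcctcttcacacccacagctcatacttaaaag
Ifit1: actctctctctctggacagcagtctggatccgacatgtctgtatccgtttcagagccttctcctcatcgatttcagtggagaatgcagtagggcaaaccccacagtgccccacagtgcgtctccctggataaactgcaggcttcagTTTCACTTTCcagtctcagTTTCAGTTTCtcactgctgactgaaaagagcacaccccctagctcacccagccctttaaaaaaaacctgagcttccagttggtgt
Ifit3: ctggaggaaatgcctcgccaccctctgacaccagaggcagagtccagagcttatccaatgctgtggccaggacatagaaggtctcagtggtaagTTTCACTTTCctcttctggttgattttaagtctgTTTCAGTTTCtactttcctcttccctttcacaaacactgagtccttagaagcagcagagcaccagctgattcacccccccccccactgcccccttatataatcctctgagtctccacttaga
Rsad2: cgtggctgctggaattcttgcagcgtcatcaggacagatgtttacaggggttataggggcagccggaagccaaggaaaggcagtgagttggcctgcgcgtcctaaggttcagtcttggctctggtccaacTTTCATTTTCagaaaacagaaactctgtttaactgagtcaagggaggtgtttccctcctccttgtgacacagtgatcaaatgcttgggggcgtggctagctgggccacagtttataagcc
The Isg15 stretch held 3 overlapping matches, those of Ifit1 and Ifit3 held 2 each and that of Rsad2 held 1. Among all 27025 genes with a promoter in the table, 936 (3.46%) held a match in the same window. Of the 28 type I interferon list genes with a promoter there, 12 (42.9%) held one. Of the list genes, 12 were measured and at least 2-fold higher under 4000 UMIs in both αCD40 pairs than in PD1+CTLA4, and 6 (54.5%) of the 11 with a promoter there held one. Of the 7 stefin genes with a promoter, 0 did. A match describes these letters only and is not a measured site.

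Neutrophils made up 10.1% (95% interval 8.60 to 11.7) of neutrophil and macrophage barcodes in PD1+CTLA4. The share was 8.15% (7.33 to 9.04) in PD1+CD40, 6.18% (5.48 to 6.93) in CD40+CTLA4, 3.88% (2.99 to 4.94) in Triplet and 7.35% (6.12 to 8.74) in PBS. It was lowest in Triplet and highest in PD1+CTLA4, and these 2 intervals do not meet. With at least 1000 UMIs and 500 genes per barcode the order at the top turned, since PD1+CTLA4 was at 4.95%, PD1+CD40 at 4.71% and PBS highest at 5.70%, with Triplet still lowest at 3.11%. Of all kept barcodes, neutrophils were 1.53%, 1.94%, 1.65%, 1.33% and 2.66% in the same order. The sort set a mix of fractions before loading, so neither share measures neutrophils per tumour. In PD1+CD40 and CD40+CTLA4 the kept barcodes outnumbered the cells loaded, so the share of kept barcodes there is not a share of cells. Barcodes called T cells were 2297 of 9999 kept in PD1+CTLA4, 446 of 16884 in PD1+CD40 and 385 of 16389 in CD40+CTLA4. They were 1147 of 4732 in Triplet and 539 of 4404 in PBS. The kept barcodes thus did not hold 1 common mix. The data of PD1+CTLA4, PD1+CD40 and Triplet list only barcodes past a cell call. The smallest Triplet member had 709 UMIs, against 504 to 547 in the other libraries. How complete the capture of such small barcodes was is unknown. Fewer cells, cells missed in capture and cells left out by the cell call cannot be told apart.

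The rule's limits touched many barcodes. With the other conditions met, barcodes with 10 to 12 S100a8 and S100a9 UMIs numbered 9, 10, 11, 4 and 7 in PD1+CTLA4, PD1+CD40, CD40+CTLA4, Triplet and PBS, and those with 7 to 9, just outside, numbered 10, 25, 17, 2 and 11. Those with exactly 2 receptor UMIs numbered 14, 62, 55, 8 and 7, and those with 1, just outside, numbered 24, 107, 45, 4 and 6. Those kept out by 3 or more C1q UMIs alone numbered 63, 114, 167, 26 and 27. PD1+CD40 had the most barcodes just under the receptor limit, and 154 more there had no receptor UMI at all. No member barcode was a member in another library, and at most 2 per library were kept barcodes of another library.

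**Figure D1:**
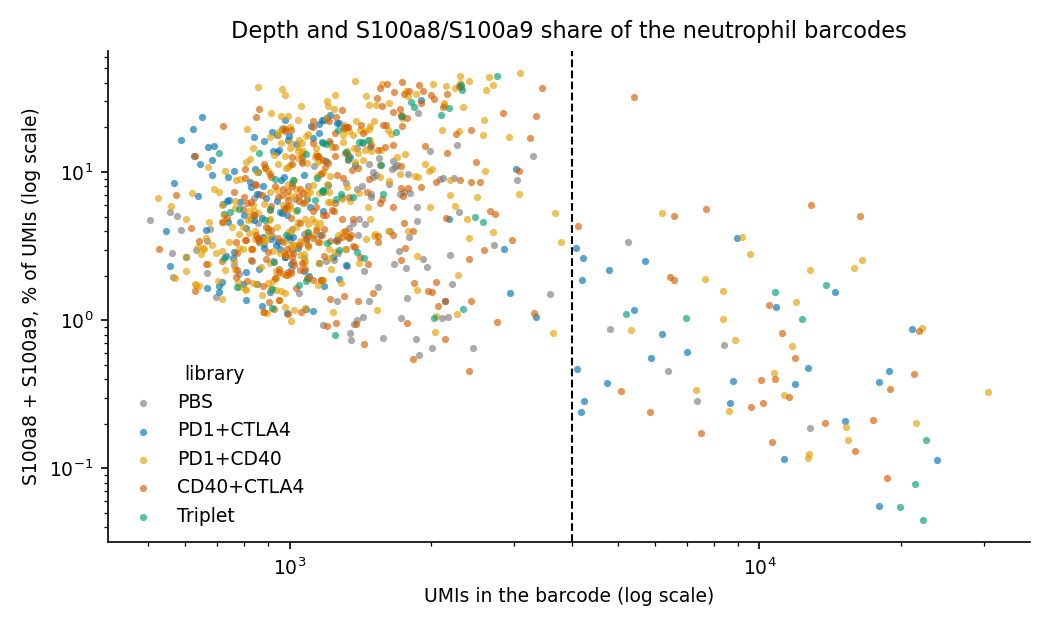
UMIs per neutrophil barcode (log scale) against the percent of its UMIs from S100a8 and S100a9 (log scale) in the 5 libraries, 1 point per barcode, with the 4000-UMI limit as a dashed line. Medians run from 995 in PD1+CTLA4 to 1436 in PBS, while 93 of 931 barcodes reach 4000 UMIs or more. The rule's minimum of 10 UMIs sets the sloping lower edge.

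The barcodes were shallow. Their median was 995 UMIs in PD1+CTLA4, 1096 in PD1+CD40, 1262 in CD40+CTLA4, 1320 in Triplet and 1436 in PBS, against 9201 to 16569 in macrophage barcodes and 2775 to 3089 in T cell barcodes. A tail of 93 barcodes (9.99%) held 4000 UMIs or more. These few barcodes carried 49.5% of all neutrophil UMIs, and as much as 67.3% in PD1+CTLA4 and 64.5% in Triplet, against 21.9% in PBS. They numbered 27, 24, 27, 9 and 6 in PD1+CTLA4, PD1+CD40, CD40+CTLA4, Triplet and PBS.

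The deep barcodes carried more tumour and monocyte marker RNA. The rule asks for a fixed number of UMIs, so a deep barcode could pass with a smaller share of neutrophil RNA, and the rule genes are not compared by depth. The 10 neutrophil identity genes outside the rule, among them G0s2, Hdc and Wfdc21, summed to 7371 to 22890 CPM under 4000 UMIs, where CPM scales a group's UMIs to 1e6, and to 1100 to 4799 CPM in the deep barcodes. Renca tumour markers (Krt8, Krt18, Cryab, Cdh1 and Epcam) went the other way, from 40 to 162 CPM in shallow to 267 to 1376 CPM in deep barcodes. Monocyte markers were at 162 to 1377 CPM in shallow and 1181 to 2692 CPM in deep barcodes. The values below are therefore those of the 838 barcodes under 4000 UMIs unless another group is named, with all members beside the leading lists and genes where the direction or the 2-fold call differs. Whether the deep barcodes are mixed droplets was not tested.

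**Figure D2:**
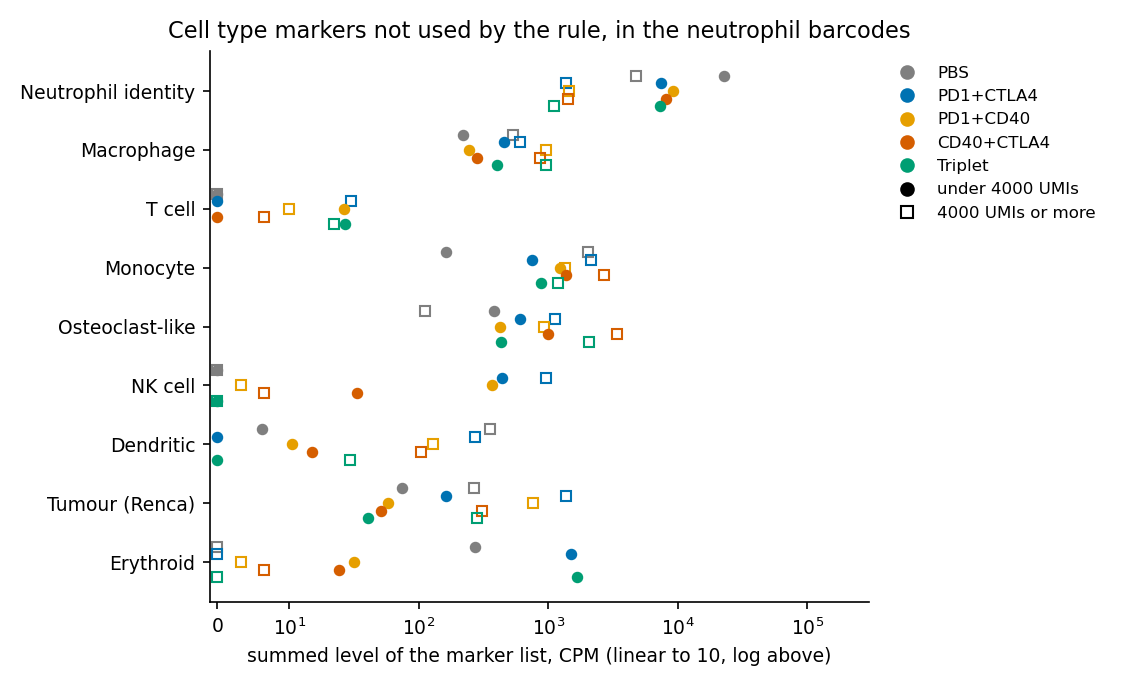
Summed level (CPM) of marker lists, without the genes of the rule, in neutrophil barcodes under 4000 UMIs (circles) and at 4000 or more (squares), for the 5 libraries. Neutrophil identity genes lie between 7371 and 22890 CPM in the shallow barcodes and between 1100 and 4799 CPM in the deep ones, which could pass the rule with a smaller share of neutrophil RNA.

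Under 4000 UMIs the label held against macrophage, T cell, mast cell and basophil markers outside the rule. Wfdc21, a whey-acidic-protein gene of granulocytes, was at 731, 1564, 1167, 1410 and 280 CPM in PD1+CTLA4, PD1+CD40, CD40+CTLA4, Triplet and PBS, and at most 7.01 CPM in macrophage barcodes. Hdc, which makes histamine, was at 1839, 1127, 1176, 1839 and 2434 CPM, and at most 2.59 CPM in macrophage barcodes. The macrophage markers that the rule does not use (Apoe, Mrc1, Cd68 and Adgre1) summed to 218 to 454 CPM against 2981 to 7115 CPM in macrophage barcodes. The T cell markers outside the rule (Trac, Trbc2 and Cd2) were at 0 in PD1+CTLA4, CD40+CTLA4 and PBS and summed to 26.3 CPM in PD1+CD40 and 26.9 CPM in Triplet, against 802 to 1788 CPM in T cell barcodes. All 5 mast cell and basophil markers were at 0. The rule set no limit on monocyte genes. Monocyte markers summed to 754, 1233, 1377, 886 and 162 CPM in PD1+CTLA4, PD1+CD40, CD40+CTLA4, Triplet and PBS. In macrophage barcodes they summed to 1146, 495, 503, 675 and 595 CPM. Whether monocytes are among the members was not tested. S100a8 and S100a9, which chose the members, summed to 32812 to 72156 CPM over all members and to 3.48 to 85.6 CPM in T cell and macrophage barcodes. The T cell and macrophage barcodes were chosen with an upper limit on the same genes. That gap was therefore set by selection and cannot test the label.

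S100a9, a rule gene and so only described, was at 57059 CPM in PD1+CTLA4, 77801 in PD1+CD40, 72159 in CD40+CTLA4, 80648 in Triplet and 39170 in PBS. Csf3r was at 2416, 1485, 1495, 1718 and 1880 CPM in that order. Retnlg, a resistin-like secreted protein of circulating granulocytes, was at 4402, 3329, 3131, 2739 and 2646 CPM. G0s2, a lipase inhibitor, was at 1585, 2605, 1970, 1208 and 12725 CPM. PBS stood far above the treated libraries in G0s2 alone among these 4.

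Primary granule genes were nearly absent and secondary granule genes were rare. Mpo and Elane, proteases and peroxidase of primary granules made by marrow precursors, were at 0 in all 5 libraries. Fcnb, a ficolin of young neutrophils, was also at 0. Ltf, the lactoferrin of secondary granules, was at 7.70, 26.3, 18, 13.4 and 37.4 CPM in PD1+CTLA4, PD1+CD40, CD40+CTLA4, Triplet and PBS. After thinning to 500 UMIs, a primary granule gene was found in 0.33% of PD1+CD40 barcodes and in none of the other 4 libraries, where 0 counts, read as up to 3, allow a share with a UMI of up to 1.23% in CD40+CTLA4 and 5.56% in Triplet. One of Ngp, Camp, Ltf and Fcnb was found in 0%, 3.62%, 1.65%, 1.85% and 0% of thinned barcodes in PD1+CTLA4, PD1+CD40, CD40+CTLA4, Triplet and PBS, and in 1.59%, 6.25%, 5.35%, 5.56% and 2.70% before thinning. Ngp and Camp were higher in the deep barcodes of CD40+CTLA4. Ngp, a secondary granule protein, was at 212 CPM over all CD40+CTLA4 members and 30.1 CPM under 4000 UMIs, and Camp, the cathelicidin, at 242 and 6.01 CPM.

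Siglecf, the receptor that marks a tumour-resident neutrophil state, was at 53.9, 23.7, 36.1, 40.3 and 49.8 CPM in the same order. It was held by 1.23% to 3.70% of thinned barcodes, and the intervals of all 5 libraries overlap. Cell cycle genes were held by 11.9%, 11.8%, 9.88%, 7.41% and 10.8%. The T cell barcodes held them at 26.8% to 34.0% and macrophage barcodes at 44.0% to 53.0%, so the neutrophil share was below both in each library.

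Of 2644 genes measured under 4000 UMIs in PD1+CD40 and PD1+CTLA4, 111 (4.2%) were at least 2-fold higher and 319 (12.1%) at least 2-fold lower in PD1+CD40. For CD40+CTLA4 the counts were 126 (4.73%) higher and 272 (10.2%) lower of 2665. For Triplet they were 105 (3.93%) higher and 231 (8.64%) lower of 2675. Over all members the higher genes were 97 (3.25%) of 2981, 95 (3.15%) of 3016 and 93 (2.96%) of 3140, and the lower ones 167 (5.6%), 140 (4.64%) and 123 (3.92%). The median of all measured genes under 4000 UMIs was -0.20, -0.20 and -0.13 on the log2 scale, so a list at 0 sits slightly above it.

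The type I interferon genes stood higher in the neutrophils of both αCD40 pairs than in those of PD1+CTLA4, and part of the way in Triplet. Their summed level was 3440 CPM in PD1+CTLA4, 7648 in PD1+CD40, 8481 in CD40+CTLA4, 5236 in Triplet and 3511 in PBS. Of the measured list genes, 13 of 22 were at least 2-fold higher in PD1+CD40, 15 of 23 in CD40+CTLA4 and 6 of 19 in Triplet, with 0 lower in each. The medians were 1.48, 1.40 and 0.39 on the log2 scale, beside the -0.20, -0.20 and -0.13 of all genes. Over all members the counts fell to 9 of 18, 10 of 21 and 0 of 16, with medians of 0.94, 1.00 and 0.13, and in Triplet 1 gene was lower. Over the alternatives the medians of the αCD40 pairs ranged from 0.59 to 1.48 and from 0.63 to 1.40. Their medians under 4000 UMIs were thus the highest of each range.

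Isg15, a ubiquitin-like protein whose promoter is printed above, was at 362 CPM (266 to 481) in PD1+CTLA4, 1796 (1664 to 1936) in PD1+CD40, 1961 (1813 to 2117) in CD40+CTLA4, 873 (674 to 1112) in Triplet and 1071 (917 to 1243) in PBS. PD1+CTLA4 was the lowest of the 5, and the intervals of the αCD40 pairs lay above all others. The log2 folds over PD1+CTLA4 were 2.25, 2.38 and 1.23 for PD1+CD40, CD40+CTLA4 and Triplet, and that of Triplet was 0.73 with all members. Isg15 in droplets of under 100 UMIs, which hold free RNA, was at 176 CPM in CD40+CTLA4 and 98.7 CPM in PBS, the 2 libraries whose files list such barcodes.

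Zbp1, a sensor of Z-form nucleic acids, was at 30.8 CPM (8.39 to 78.8) in PD1+CTLA4, 258 (210 to 315) in PD1+CD40, 325 (266 to 392) in CD40+CTLA4, 107 (46.4 to 212) in Triplet and 6.23 (0.16 to 34.7) in PBS. Both pairs stood above PD1+CTLA4 and PBS, with Triplet between. With all members the Zbp1 log2 folds were only 0.48, 0.80 and -0.38. Bst2, the tetherin that holds budding virus, was at 23.1 CPM in PD1+CTLA4 (3 UMIs), 221 in PD1+CD40, 235 in CD40+CTLA4, 107 in Triplet and 18.7 in PBS. The Bst2 ratio of PD1+CD40 to PD1+CTLA4 had an interval of 3.17 to 47.4. With the deep barcodes included, Bst2 ran the other way, with log2 folds of -0.27, -0.44 and -1.13. Its level in the deep PD1+CTLA4 barcodes was 583 CPM.

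Herc6, a ligase of the ISG15 system, was at 15.4 CPM in PD1+CTLA4 (2 UMIs), 153 in PD1+CD40, 168 in CD40+CTLA4, 94.0 in Triplet and 12.5 in PBS. The ratio interval of CD40+CTLA4 to PD1+CTLA4 for Herc6 was 2.89 to 92.6. Rsad2, the viperin enzyme, was at 100 (53.3 to 171), 316 (262 to 378), 283 (228 to 346), 175 (92.9 to 298) and 56.0 (25.6 to 106) CPM in PD1+CTLA4, PD1+CD40, CD40+CTLA4, Triplet and PBS. The αCD40 pairs were again above PD1+CTLA4 and PBS, and the Triplet interval met both sides. Ifit1, which binds foreign RNA, was at 46.2, 179, 229, 121 and 12.5 CPM, and Irf7, the factor that amplifies interferon production, at 123, 306, 358, 161 and 131 CPM. Both were highest in CD40+CTLA4. With all members the Triplet folds of Herc6 and Ifit1 were 0.12 and 0.94, and the Irf7 fold of PD1+CD40 was 0.66, each under 2-fold.

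Not every member of the list moved. Slfn1, a Schlafen gene at high level in all neutrophils, was at 1047, 1359, 1504, 1450 and 990 CPM in the same order, and its log2 folds of 0.37, 0.51 and 0.46 stayed under 2-fold. Slfn4 was at 500, 714, 653, 550 and 517 CPM, with folds of 0.50, 0.37 and 0.13, of which that of PD1+CD40 was 1.13 with all members. Slfn5 was at 169, 137, 195, 134 and 37.4 CPM. Schlafen genes are related neighbours, and whether reads were split between them was not tested.

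The summed list in macrophage barcodes of the same libraries was 1374, 1237, 1669, 1341 and 809 CPM, and in T cell barcodes 1381, 1146, 1475, 1257 and 1273 CPM. In those cells PD1+CD40 was below PD1+CTLA4 and CD40+CTLA4 above it. The difference between cell types was not tested. Of the plasmacytoid dendritic markers, Siglech, Ccr9 and Klk1 were at 0 in the shallow members of all 5 libraries, and the remaining one, Bst2, is on the interferon list too. The median depth of these barcodes was 948 UMIs in PD1+CTLA4, 1072 in PD1+CD40, 1206 in CD40+CTLA4 and 1253 in Triplet. Their median mitochondrial share was 1.96%, 0.53%, 1.55% and 1.18%. PD1+CTLA4 was thus lowest in depth and highest in mitochondrial share, and the part of either in the result was not tested.

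Markers of other cells also moved with these libraries under 4000 UMIs. The 6 monocyte markers summed to 754 CPM in PD1+CTLA4, 1233 in PD1+CD40, 1377 in CD40+CTLA4, 886 in Triplet and 162 in PBS, of which Plac8 alone made 646, 1080, 1272, 712 and 131 CPM. Ccr2, the receptor that defines these monocytes, was at 38.5, 39.5, 27.1, 0 and 6.23 CPM. The 3 haemoglobin genes summed to 1508, 31.6, 24.1, 1678 and 274 CPM, high in PD1+CTLA4 and Triplet and low in the αCD40 pairs. The 5 NK cell markers summed to 439, 371, 33.1, 0 and 0 CPM, with 46 of the 47 Gzma UMIs of PD1+CTLA4 in 1 barcode. The part of monocyte, erythroid or NK cell RNA in the interferon result was not tested.

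**Figure D3:**
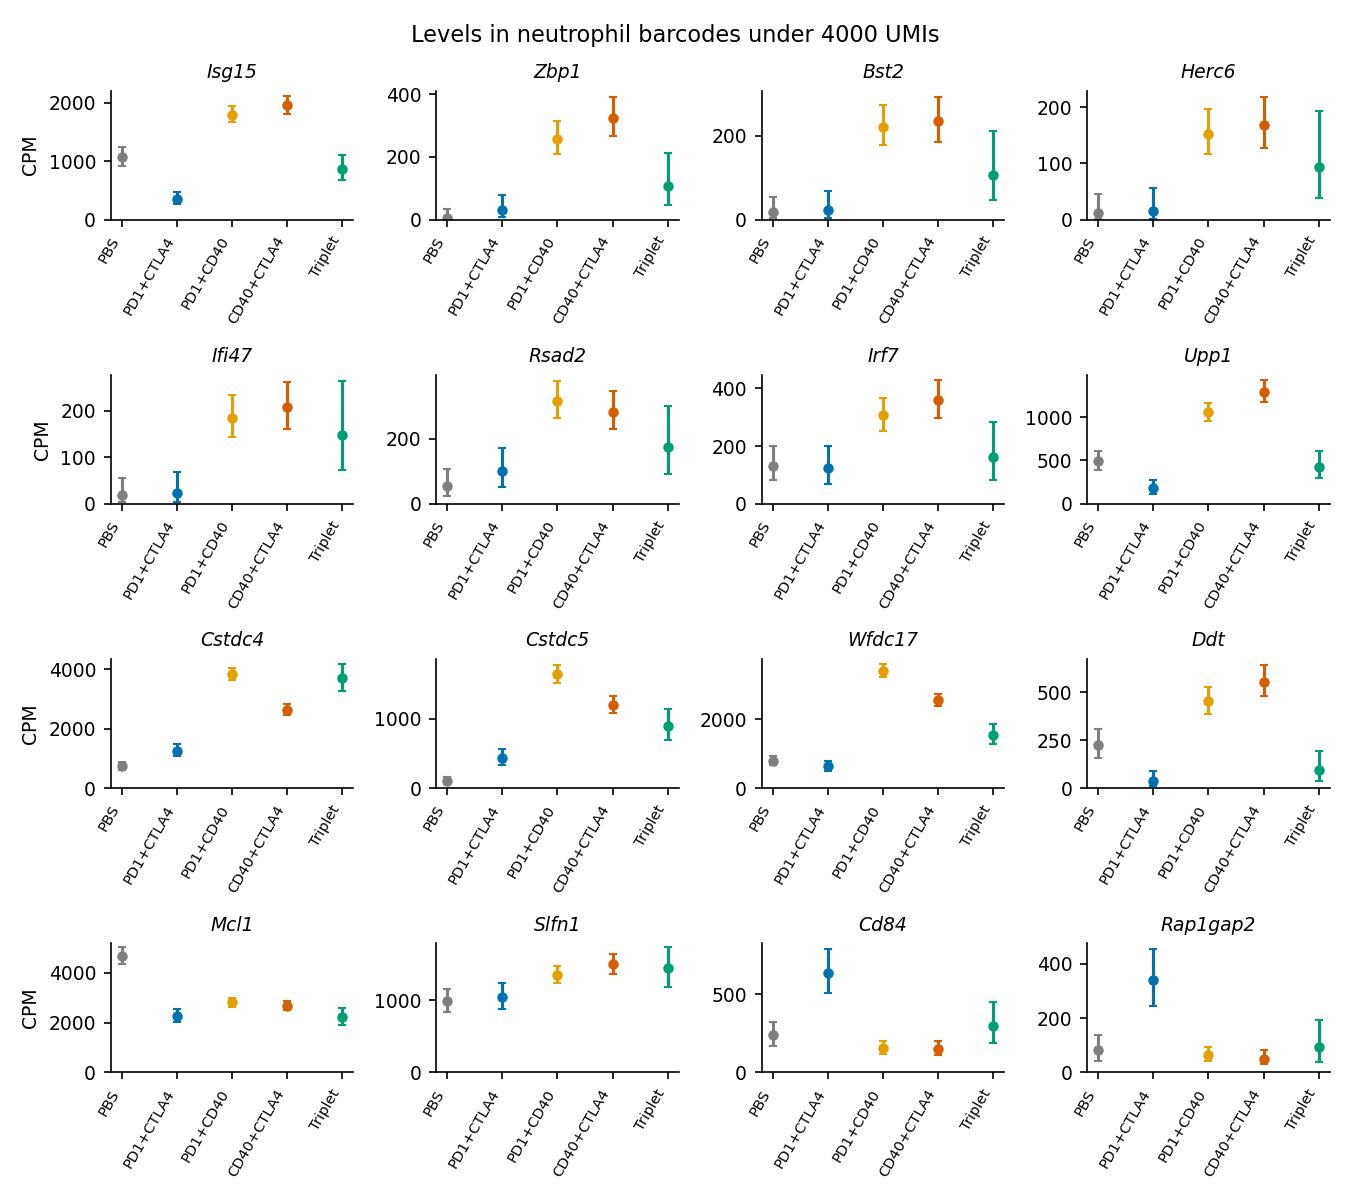
Level (CPM, each axis from 0) of 16 genes in neutrophil barcodes under 4000 UMIs of the 5 libraries, with exact Poisson 95% intervals. Isg15 reaches 1796 and 1961 CPM in PD1+CD40 and CD40+CTLA4 against 362 CPM in PD1+CTLA4, while Cd84 and Rap1gap2 are highest in PD1+CTLA4.

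The share of barcodes with at least 1 UMI of the list also differed, though the Triplet interval met those of all other libraries. A UMI of any list gene counted, also one of Slfn1, whose level was high in every library. After thinning each barcode to 500 UMIs, 69% (60.2 to 77) of PD1+CTLA4 neutrophils held a UMI of the type I interferon list, 80.3% (75.3 to 84.6) in PD1+CD40, 85.2% (80.1 to 89.4) in CD40+CTLA4, 77.8% (64.4 to 88.0) in Triplet and 67.6% (58.0 to 76.1) in PBS. Unthinned, the shares were 81.0%, 91.4%, 94.7%, 88.9% and 91.0%, so PBS stood with the αCD40 libraries before thinning and with PD1+CTLA4 after it. Macrophage barcodes held one at 27.2% to 49.3% and T cell barcodes at 40.1% to 49.1%, below the neutrophils of each library.

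Barcodes with 3 or more of their 500 UMIs on the list were 21.4% (14.6 to 29.6) in PD1+CTLA4, 41.4% (35.9 to 47.2) in PD1+CD40, 49.8% (43.3 to 56.3) in CD40+CTLA4, 31.5% (19.5 to 45.6) in Triplet and 20.7% (13.6 to 29.5) in PBS. Barcodes with 10 or more numbered 0 of 126, 32 of 304, 24 of 243, 1 of 54 and 2 of 111. Barcodes very rich in interferon transcripts were thus mostly from the 2 αCD40 pairs, with up to 32 and 39 list UMIs in 1 barcode.

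**Figure D4:**
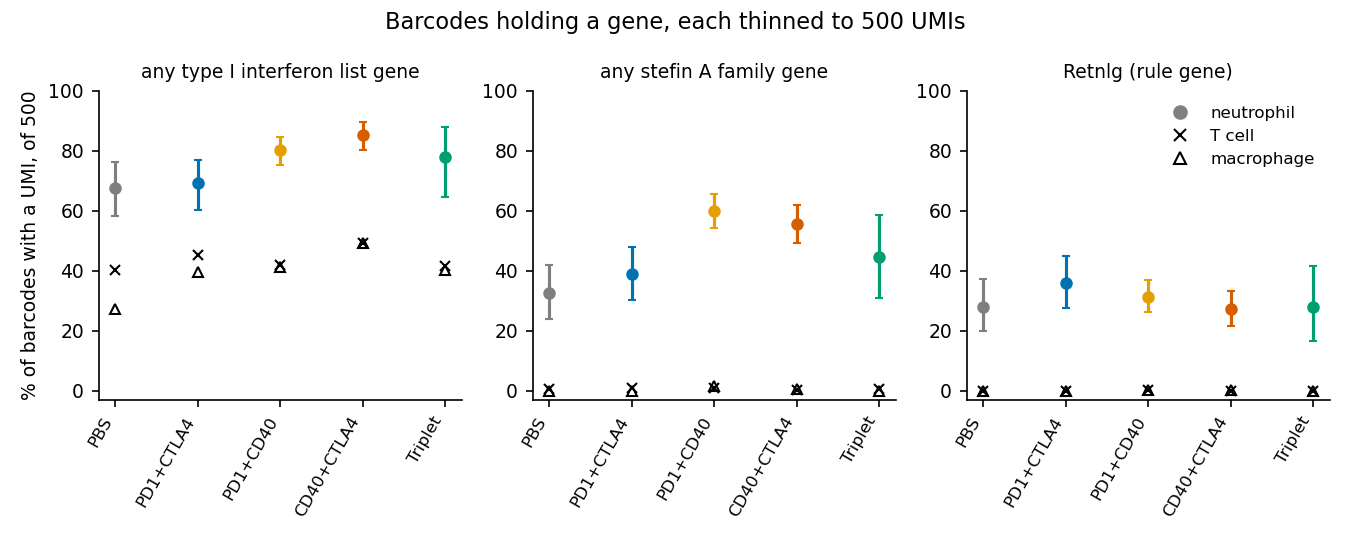
Percent of barcodes with at least 1 UMI after thinning to 500 UMIs, for any type I interferon list gene, any stefin A family gene and Retnlg, in neutrophil barcodes under 4000 UMIs (circles with exact Clopper-Pearson 95% intervals), T cell barcodes (crosses) and macrophage barcodes (triangles). CD40+CTLA4 is highest for the interferon list at 85.2% and PD1+CD40 for the stefins at 59.9%.

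Genes that interferon-gamma induces were higher under 4000 UMIs too. They were at least 2-fold higher for 5 of 20 measured genes in PD1+CD40, 9 of 21 in CD40+CTLA4 and 6 of 19 in Triplet, with 0 lower and medians of 0.73, 0.86 and 0.96. With all members most of these calls were lost, with 2 of 21, 1 of 21 and 2 of 19 higher, 1, 2 and 2 lower and medians of -0.17, 0.07 and -0.26. Over the alternatives the medians ranged from -0.18 to 0.73, from -0.14 to 0.86 and from -0.34 to 0.96. The medians under 4000 UMIs were thus the highest of each range. The list summed to 3155, 5805, 6613, 4618 and 2453 CPM in PD1+CTLA4, PD1+CD40, CD40+CTLA4, Triplet and PBS. In macrophage barcodes PD1+CTLA4 was the highest instead, at 4907 CPM against 2528, 3579, 3122 and 2125 CPM. That difference between cell types was not tested.

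Upp1, a uridine phosphorylase, had the widest gap of this list in the 2 αCD40 pairs. It was at 185 CPM (118 to 275) in PD1+CTLA4, 1056 (955 to 1165) in PD1+CD40, 1293 (1174 to 1421) in CD40+CTLA4, 430 (294 to 606) in Triplet and 492 (389 to 613) in PBS. Its log2 folds were 2.39, 2.68 and 1.14, and with all members 2.94, 3.14 and 1.30. Macrophage barcodes held 5.33 to 27.7 CPM of Upp1 and free RNA 28.7 CPM in CD40+CTLA4, each below the neutrophil level.

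Gbp2b, a guanylate-binding protein that attacks vacuoles, was at 84.6, 292, 265, 201 and 37.4 CPM in PD1+CTLA4, PD1+CD40, CD40+CTLA4, Triplet and PBS, with 8 of its 15 Triplet UMIs in 1 barcode. Irgm1, a related GTPase, was at 38.5, 105, 114, 161 and 0 CPM. Both were lowest in PBS. The Irgm1 log2 fold of Triplet, 1.63, was above that of Upp1. With all members neither Gbp2b, at 0.21, 0.082 and -0.012, nor Irgm1, at 0.084, 0.13 and -0.26, was past 2-fold.

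The MHC class I genes followed. H2-K1 was at 531 CPM (413 to 672) in PD1+CTLA4, 1399 (1282 to 1523) in PD1+CD40, 1663 (1527 to 1808) in CD40+CTLA4, 1128 (900 to 1396) in Triplet and 996 (848 to 1163) in PBS. B2m, its light chain, was at 1601, 3292, 3642, 2605 and 909 CPM. H2-T23 was at 100, 263, 301, 349 and 162 CPM. H2-K1 and B2m were lowest in PD1+CTLA4 and PBS respectively, and both were highest in CD40+CTLA4. The MHC list had 5 of 10, 6 of 10 and 3 of 10 genes at least 2-fold higher, with medians of 0.95, 1.16 and 0.50, and 1 lower gene in Triplet. With all members nearly all these calls were lost: 1 of 12, 1 of 11 and 0 of 12 were higher and 1, 1 and 0 lower, with medians of 0.36, 0.28 and 0.25. H2-K1 was then at log2 folds of 0.32, 0.53 and -0.54. MHC class I genes are close paralogs, so single-gene counts are uncertain.

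The class II genes H2-Aa and Cd74 are abundant in macrophages, and their level in neutrophils was low. H2-Aa was at 315, 350, 328, 121 and 324 CPM in PD1+CTLA4, PD1+CD40, CD40+CTLA4, Triplet and PBS, against 2948 to 6674 CPM in macrophage barcodes. In PD1+CTLA4, 17 of its 41 UMIs came from 1 barcode. The H2-Aa log2 fold of Triplet over PD1+CTLA4 was -1.25, and 0.39 with all members.

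Targets of the antibodies were nearly silent in neutrophils. Cd40 was at 0, 7.90, 12, 0 and 0 CPM in PD1+CTLA4, PD1+CD40, CD40+CTLA4, Triplet and PBS, where 3 counts would make 23.1, 7.90, 9.02, 40.3 and 18.7 CPM. Pdcd1 and Ctla4 were at 0 to 5.27 CPM. Cd274, which encodes PD-L1, the ligand of PD-1, was readily detected at 508 (393 to 646), 1075 (973 to 1184), 833 (738 to 937), 712 (533 to 931) and 623 (507 to 757) CPM. It was highest in PD1+CD40, with a log2 fold of 1.05 over PD1+CTLA4, and macrophage barcodes held 41.3 to 82.6 CPM. Cd80, a ligand of CTLA-4, was at 177, 134, 135, 242 and 286 CPM.

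The stefins, small inhibitors of cathepsins that neutrophils hold in the cytosol, were the other group that stood higher. The list summed to 3717, 9268, 7212, 7398 and 2235 CPM in PD1+CTLA4, PD1+CD40, CD40+CTLA4, Triplet and PBS. At least 2-fold higher were 4 of 6 measured in PD1+CD40, 5 of 6 in CD40+CTLA4 and 4 of 7 in Triplet, with medians of 1.65, 1.06 and 1.00, and 1 was lower in Triplet. With all members 5 of 6, 3 of 5 and 2 of 4 were higher, with medians of 2.26, 1.47 and 0.97. Apart from Cstb, these genes are similar copies in 1 cluster, so reads may be split among them and single members are uncertain. The sum includes Cstb. The list summed to 630 to 1343 CPM in macrophage barcodes and to 302 to 358 CPM in T cell barcodes.

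Cstdc4 was at 1262 CPM (1076 to 1471) in PD1+CTLA4, 3845 (3651 to 4048) in PD1+CD40, 2643 (2472 to 2824) in CD40+CTLA4, 3705 (3281 to 4169) in Triplet and 735 (608 to 880) in PBS. Here Triplet stood with PD1+CD40, not between. Macrophage and T cell barcodes held at most 3.86 CPM of Cstdc4. Cstdc5 was at 439, 1638, 1197, 900 and 99.6 CPM, and Stfa3 at 23.1, 240, 117, 148 and 6.23 CPM. Stfa2 was at 139 (82.1 to 219), 500 (432 to 577), 301 (245 to 366) and 53.7 (14.6 to 138) CPM in the 4 treated libraries, so it was lowest of them in Triplet, and it was at 0 in PBS.

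Stefin transcripts were concentrated in some barcodes. After thinning, a stefin A family gene was held by 38.9% (30.3 to 48.0) of PD1+CTLA4 barcodes, 59.9% (54.1 to 65.4) of PD1+CD40, 55.6% (49.1 to 61.9) of CD40+CTLA4, 44.4% (30.9 to 58.6) of Triplet and 32.4% (23.9 to 42.0) of PBS. The unthinned shares were 48.4%, 68.4%, 67.1%, 61.1% and 41.4%. T cell and macrophage barcodes held one in at most 1.57%. Of the 276 Cstdc4 UMIs in Triplet, 50 came from 1 barcode.

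Wfdc17, a small secreted protein of the whey-acidic-protein family, was at 639 CPM (509 to 792) in PD1+CTLA4, 3416 (3233 to 3607) in PD1+CD40, 2562 (2393 to 2740) in CD40+CTLA4, 1557 (1287 to 1868) in Triplet and 797 (665 to 947) in PBS. Its log2 folds were 2.38, 1.97 and 1.26. Macrophage barcodes held 299 to 882 CPM of Wfdc17, highest in PBS. Ifitm1, an antiviral membrane protein, was at 723, 2750, 2698, 1531 and 697 CPM, with folds of 1.90, 1.87 and 1.06, the last 0.87 with all members. Both genes belong to the fixed list of suppressive neutrophil genes, of which 3 of 16, 2 of 16 and 3 of 16 were at least 2-fold higher and 2, 1 and 1 lower, with medians of 0.40, 0.29 and 0.36. With all members 6, 5 and 1 of 15 were higher and 1, 1 and 0 lower. Arg1 and Nos2, the classic arginine-consuming enzymes of that list, were at most 5.27 and 3.01 CPM. Arg2, the mitochondrial arginase, was at 469, 737, 743, 738 and 822 CPM, and past 2-fold in the αCD40 pairs with all members, at 1.12 and 1.07.

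Cd84, a SLAM-family receptor of the same list, went the other way. It was at 639 CPM (509 to 792) in PD1+CTLA4, 155 (118 to 200) in PD1+CD40, 150 (112 to 198) in CD40+CTLA4, 295 (185 to 447) in Triplet and 237 (167 to 325) in PBS. Its log2 folds of -1.91, -1.95 and -1.06 placed PD1+CTLA4 above the rest, though that of Triplet was -0.67 with all members. Rap1gap2, which switches off the GTPase Rap1, was at 339, 63.2, 51.1, 94.0 and 80.9 CPM, and Slc40a1, the iron exporter ferroportin, at 531, 145, 138, 134 and 168 CPM. Both were high in PD1+CTLA4 and low in the other 4 libraries.

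The adhesion list held 3 of 13, 4 of 13 and 1 of 13 genes at least 2-fold lower and 0 higher, with medians of -0.33, -0.23 and -0.32. Of all measured genes, 12.1%, 10.2% and 8.64% were lower, so the Triplet count was near that share. The CD40+CTLA4 median was close to the -0.20 of all genes. Itga4, the α4 integrin chain, was at 416, 105, 108, 255 and 168 CPM in PD1+CTLA4, PD1+CD40, CD40+CTLA4, Triplet and PBS. Cd101, a marker of mature neutrophils, was at 331, 79.0, 75.2, 161 and 125 CPM. Itgam, the CD11b integrin chain, was at 569, 321, 265, 403 and 293 CPM. With all members 2 of 13 were lower in each and 1, 0 and 1 higher, and the medians of 0.058, -0.018 and 0.080 lay above the -0.21, -0.18 and -0.10 of all genes, where under 4000 UMIs they lay below.

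**Figure D5:**
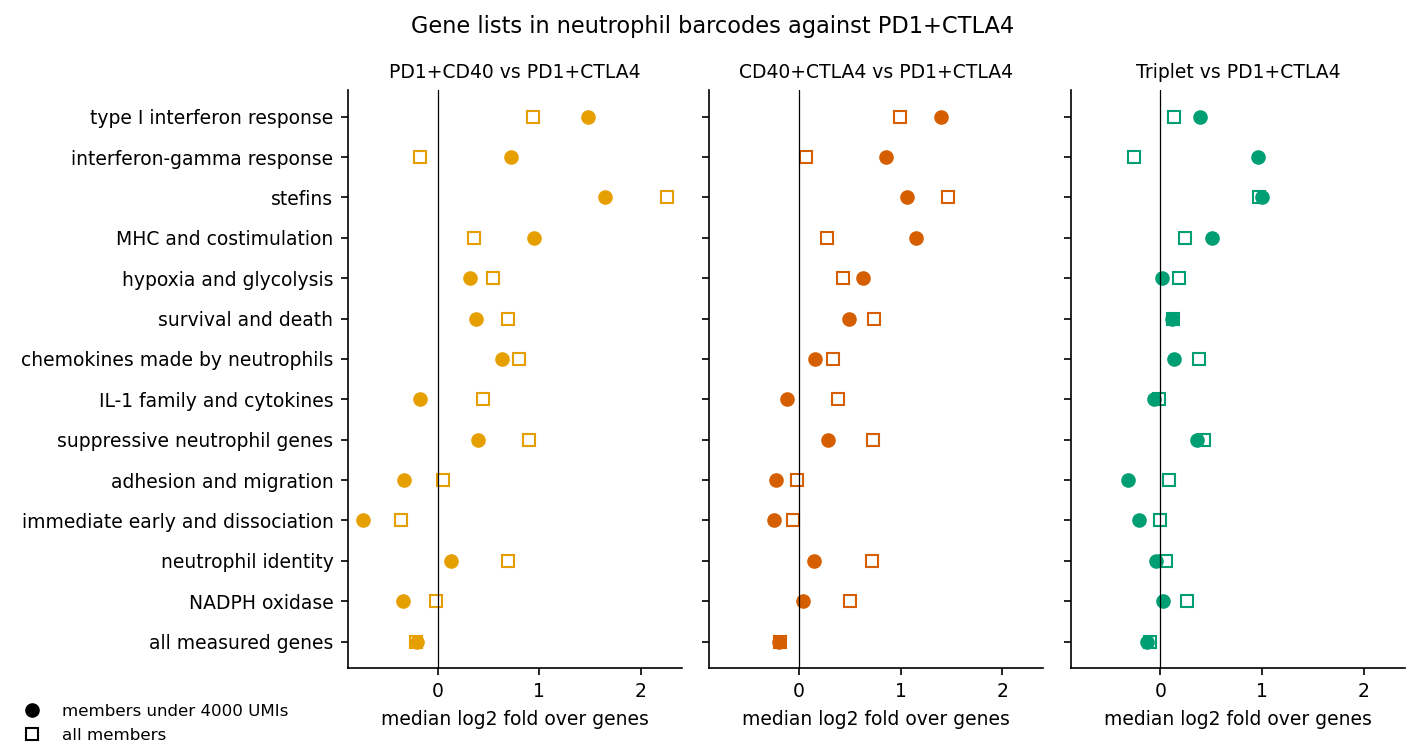
Median log2 fold of 13 gene lists and of all measured genes in PD1+CD40, CD40+CTLA4 and Triplet neutrophils against PD1+CTLA4, for barcodes under 4000 UMIs (circles) and all members (squares). The type I interferon median is 1.48, 1.40 and 0.39 under 4000 UMIs, and the interferon-gamma median changes sign or size when the deep barcodes are included.

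Among chemokines, Cxcl2, the main neutrophil attractant made by neutrophils themselves, was at 2863 CPM (2579 to 3169) in PD1+CTLA4, 5239 (5011 to 5474) in PD1+CD40, 3753 (3548 to 3967) in CD40+CTLA4, 2752 (2388 to 3156) in Triplet and 22972 (22236 to 23725) in PBS. PD1+CD40 was the highest of the treated libraries, at a log2 fold of 0.87. With all members Cxcl2 passed 2-fold in both αCD40 pairs, at 1.54 and 1.09. Cxcl10, a T cell attractant that interferons induce, was at 200, 548, 944, 376 and 18.7 CPM, but all 28 UMIs of Triplet lay in 2 barcodes. The chemokine list had 2 of 7, 3 of 8 and 0 of 6 genes higher and 0, 0 and 1 lower, with medians of 0.63, 0.16 and 0.14. With all members 5 of 11, 2 of 10 and 1 of 10 were higher and 1, 2 and 2 lower.

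Few cytokine genes passed 2-fold among the treated libraries. Il1b, the leading inflammatory cytokine of neutrophils, was at 7487, 8886, 10273 and 6847 CPM in PD1+CTLA4, PD1+CD40, CD40+CTLA4 and Triplet, and at 15750 CPM in PBS. Il1rn, its receptor antagonist, was at 646, 1011, 863, 873 and 2509 CPM. In the IL-1 and cytokine list 0 genes were 2-fold higher, and 1 of 10, 1 of 10 and 0 of 10 were lower. The lower gene in CD40+CTLA4 was Il1a, at 39.1 CPM against 177 CPM in PD1+CTLA4. With all members Il1a was not called, at -0.79, and Il1rn was higher in the αCD40 pairs, at 1.27 in PD1+CD40 and barely past 2-fold in CD40+CTLA4.

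In the survival list 3 of 18, 2 of 18 and 1 of 17 genes were higher and 1 lower in each, with medians of 0.38, 0.50 and 0.12. Mcl1, the protein on which neutrophil survival depends, was at 2262, 2815, 2671, 2229 and 4688 CPM in PD1+CTLA4, PD1+CD40, CD40+CTLA4, Triplet and PBS. Bcl2l1, a second inhibitor of apoptosis, was at 7.70, 126, 162, 134 and 131 CPM. PD1+CTLA4 held 1 Bcl2l1 UMI, and the ratio of PD1+CD40 to it had an interval of 2.81 to 662. Casp4, which senses cytosolic lipopolysaccharide, was at 100, 263, 286, 201 and 137 CPM. With all members 5 of 18, 6 of 17 and 0 of 17 list genes were higher and 0 lower, while Casp4, at 0.66 and 0.74 in the pairs, and Bcl2l1 in Triplet, at 0.86, were under 2-fold.

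Hypoxia and glycolysis genes had 6 of 23, 4 of 22 and 2 of 20 higher and 1, 1 and 2 lower, with medians of 0.32, 0.63 and 0.01. Slc2a1 and Slc2a3, which both carry glucose, moved apart. Slc2a1 was at 100, 253, 168, 121 and 448 CPM in PD1+CTLA4, PD1+CD40, CD40+CTLA4, Triplet and PBS, and Slc2a3 at 231, 60.6, 33.1, 94.0 and 156 CPM. Ldha, lactate dehydrogenase, was at 146, 366, 322, 282 and 448 CPM, and Hilpda, a hypoxia-induced lipid droplet protein, at 77.0, 327, 208, 175 and 199 CPM. PD1+CTLA4 was the lowest library for both. With all members the list had 7 of 21, 3 of 21 and 2 of 19 higher and 0, 1 and 2 lower, Ldha was under 2-fold in the pairs at 0.57 and 0.43, and Slc2a3 in PD1+CD40 and Triplet at -0.97 and -0.90. Ddt, a cytokine related to MIF, was at 38.5, 453, 556, 94.0 and 224 CPM, and its free RNA level in CD40+CTLA4 was 375 CPM, so that library's level is within 1.5 times of free RNA.

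The other lists showed few called genes. Immediate early genes had 0 higher and 2, 0 and 0 of 14 lower, with medians of -0.73, -0.24 and -0.21. Fos was at 1693, 632, 1672, 1678 and 3256 CPM, lowest in PD1+CD40, whose log2 fold was -1.39, and -0.78 with all members. The neutrophil identity list, which includes the rule genes, had 3, 2 and 0 of 16 higher with medians of 0.14, 0.15 and -0.04. The NF-kB list had 2 of 21, 3 of 21 and 0 of 20 higher and 0, 1 and 0 lower, with medians of 0.07, 0.08 and -0.05. Chemoattractant and growth factor receptors had 0 higher and 0 of 22, 2 of 22 and 1 of 21 lower. The Siglecf program had 2 of 13, 3 of 12 and 1 of 13 higher and 1, 0 and 0 lower, with medians of 0.56, 0.24 and 0.18.

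Genes of circulating mature neutrophils had 2, 1 and 2 of 12 higher and 4, 1 and 0 lower, with medians of -0.42, -0.26 and 0.00. Secondary and tertiary granule genes had 1, 1 and 0 of 9 higher and 1, 2 and 0 lower. Lcn2, the iron-binding lipocalin, was at 254, 724, 620, 309 and 623 CPM in PD1+CTLA4, PD1+CD40, CD40+CTLA4, Triplet and PBS, and Mmp8, the neutrophil collagenase, at 239, 84.3, 69.2, 295 and 31.1 CPM. These granule genes thus ran in opposite directions in the 2 αCD40 pairs, while both were slightly above PD1+CTLA4 in Triplet. With all members Mmp8 was under 2-fold in the pairs, at -0.67 and -0.42. Fc and opsonin receptors had 1 of 9 higher in each comparison and 0, 1 and 0 lower, and Fcgr2b, the inhibitory Fc receptor, was the one at 169, 437, 430, 362 and 598 CPM. NADPH oxidase genes had 0 higher and 1, 0 and 0 of 7 lower. Lipid and prostaglandin genes had 3 of 18, 2 of 17 and 0 of 16 higher and 1, 0 and 0 lower. Transcription factors of granulopoiesis had 2 of 14, 0 of 14 and 0 of 13 higher and 1, 0 and 1 lower. The extracellular trap list had 2, 2 and 3 genes measured and 0 called. With all members the circulating mature list had 1, 2 and 0 of 12 higher and 0 lower, and the granule list 1 of 9, 3 of 11 and 0 of 9 higher and 0 lower.

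Over all members, the leading genes showed what the deep barcodes added. Highest in PD1+CD40 against PD1+CTLA4 were Upp1, Ccl17, Cstdc5, Stfa3 and Cstdc4, and in CD40+CTLA4 Ngp, Upp1, Ccl17, Cxcl10 and Ifitm1. Ccl17, a chemokine of dendritic cells, had 247 CPM over all PD1+CD40 members against 27.7 CPM for PD1+CTLA4, with 488 CPM in the deep PD1+CD40 barcodes and 55.3 CPM in the shallow ones. Highest in Triplet were Ccdc162, Birc5, Mmp12, Cstdc4 and Olfm1. Birc5, a protein of dividing cells, was at 195 CPM over all Triplet members and 40.3 CPM (3 counts) in the shallow ones. The cell cycle list had 5 of 8 genes higher in Triplet over all members, with a median of 1.92, but only 2 of its genes were measured under 4000 UMIs and 0 were called.

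Among the genes lowest in the αCD40 libraries over all members were Selenop, Krt18, Fxyd2, Cryab, Clu, Tcf4, Fyn and Ccl5. Selenop, a selenium carrier that macrophages secrete, was at 463 CPM in PD1+CTLA4, 36.7 in PD1+CD40, 23.4 in CD40+CTLA4 and 33.3 in Triplet, and Fxyd2, a kidney sodium pump subunit, at 664 CPM in PD1+CTLA4 and 14.3 in Triplet. In the deep PD1+CTLA4 barcodes Fxyd2 was at 942 CPM and Selenop at 658 CPM, against 92.3 and 61.6 CPM in the shallow ones. Cryab and Krt18, both Renca markers, were at 636 and 344 CPM in the deep PD1+CTLA4 barcodes and 92.3 and 30.8 CPM in the shallow ones. These lower calls moved with the 27 deep barcodes of PD1+CTLA4, and the share of mixed droplets among them was not tested.

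The 2 αCD40 pairs had the fewest genes past 2-fold between them of all comparisons. They also had the most summed UMIs under 4000 UMIs, 379688 in PD1+CD40 and 332515 in CD40+CTLA4. PD1+CTLA4 had 129954 and Triplet 74484, and fewer UMIs can bring more calls by counting error. The part of this in the low count was not tested. Of 2405 genes measured under 4000 UMIs, 19 (0.79%) were at least 2-fold higher and 8 (0.333%) lower in CD40+CTLA4 than in PD1+CD40. Counting all members there were 13 (0.496%) and 10 (0.381%) of 2623. None of the 25 measured type I interferon genes was called, and their median was 0.17. Isg15 differed by 0.13 on the log2 scale between the pairs.

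Ctsk and Acp5, the cathepsin and phosphatase of osteoclasts, were the clearest exceptions. Ctsk was at 373 CPM (310 to 445) in CD40+CTLA4 and 44.8 (26.1 to 71.7) in PD1+CD40, at 13.4 in Triplet, and at 0 in PD1+CTLA4 and PBS. Of its 124 UMIs in CD40+CTLA4, 55 came from 1 barcode, and its free RNA level there was 876 CPM, above that in the neutrophils. Acp5 had 265 CPM in CD40+CTLA4 and 52.7 CPM in PD1+CD40, with 48 of 88 UMIs in 1 barcode. The part of free RNA in the Ctsk and Acp5 levels was not tested. With all members Ctsk was at 1156 CPM in CD40+CTLA4, 148 in PD1+CD40, 957 in Triplet and 456 in PD1+CTLA4, with most UMIs of the last 2 libraries in 1 barcode each. Gzma, a granzyme of NK and T cells, was at 303 CPM in PD1+CD40 but 15 CPM with CD40+CTLA4, with 82 of the 115 PD1+CD40 UMIs in 1 barcode.

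Triplet differed from the pairs in both directions. Of 2511 genes, 161 (6.41%) were higher and 114 (4.54%) lower in Triplet than in PD1+CD40, and over all members 92 (3.33%) and 53 (1.92%) of 2760. Against CD40+CTLA4 the counts were 169 (6.68%) higher and 134 (5.29%) lower of 2531, and over all members 89 (3.15%) and 62 (2.19%) of 2827. Of the type I interferon list, 6 of 23 genes were lower than in PD1+CD40 and 8 of 24 lower than in CD40+CTLA4, with 0 higher and medians of -0.50 and -0.68. All-gene medians in these comparisons were 0.08 and 0.08. Triplet had 54 such barcodes and 74484 UMIs, the fewest of the 5 libraries, so 3 counts there make 40.3 CPM.

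Only some of the named genes in those comparisons are given. Stfa2 was lower in Triplet than in both pairs, by -2.82 and -2.12 on the log2 scale from 4 UMIs in Triplet. Id1, an inhibitor of differentiation factors, was at 121 CPM in Triplet against 587 in PD1+CD40 and 304 in CD40+CTLA4. Kctd12, an auxiliary subunit of GABA-B receptors, was at 309 CPM in Triplet against 89.5 and 57.1, and at 192 CPM in PD1+CTLA4. Ddt at 94.0 CPM was lower than the 556 CPM of CD40+CTLA4. Gzma was at 0 in Triplet.

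Within each library the neutrophils varied along Retnlg, which was used in the rule, so this is a description. A barcode with no Retnlg UMI could pass only through Csf3r, Cxcr2 or Il1r2, so the rule itself shapes this split. After thinning, 35.7%, 31.2%, 27.2%, 27.8% and 27.9% of barcodes held Retnlg in PD1+CTLA4, PD1+CD40, CD40+CTLA4, Triplet and PBS, and all 5 intervals overlap. Of 708 other genes measured, 45 were higher and 102 lower in the Retnlg-holding barcodes in all 5 libraries, by any amount. How many would agree in direction by counting error was not tested. At 2-fold in all 5, 0 were higher and 1, Clec4n, was lower. Cstdc5 was at 1156, 3242, 2485, 1867 and 129 CPM in the holding barcodes and at 74.1, 325, 395, 410 and 75.0 CPM in the rest. Lcn2 was at 489, 1200, 1273, 267 and 1097 CPM against 74.1, 163, 260, 103 and 350 CPM. Mmp8, Hp, Mgst1, Anxa1 and S100a6 were also higher in all 5.

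Clec4n, the lectin receptor dectin-2, was lower in Retnlg-holding barcodes in each library, at 178, 758, 545, 267 and 387 CPM against 1259, 1923, 2215, 1128 and 1550 CPM. Cd63, Fas, Icam1, Rgs2 and Fcgr2b were also lower in all 5. The mean number of type I interferon UMIs per 500 was 1.36 in holding and 1.94 in other barcodes of PD1+CTLA4, 3.17 and 4.28 in PD1+CD40, 4.39 and 4.02 in CD40+CTLA4, 2.27 and 2.36 in Triplet and 2.81 and 1.35 in PBS. The interferon genes thus had no common direction along Retnlg, unlike Cstdc5, whose gap was wide in all libraries except PBS.

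PBS stood apart from all treated libraries. Over all members, 149 of 2825 genes (5.27%) were at least 2-fold higher in PBS than in every treated library and 259 (9.17%) lower, and under 4000 UMIs 98 (3.87%) and 172 (6.79%) of 2534. Against PBS singly, all members of PD1+CTLA4 had 627 (21.8%) higher and 307 (10.7%) lower of 2877 genes, PD1+CD40 355 (14.2%) and 267 (10.7%) of 2504, CD40+CTLA4 366 (14.4%) and 258 (10.1%) of 2548, and Triplet 526 (19.3%) and 332 (12.2%) of 2727. Under 4000 UMIs the higher shares were 22.4%, 14.4%, 13.9% and 17.8% and the lower ones 8.64%, 10.6%, 9.85% and 11.6%. PBS was counted with another Cell Ranger version than the treated libraries, so treatment and processing cannot be told apart in these comparisons.

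Over all members the genes highest in PBS were Cxcl3, Nr4a1, Il31ra, Csrnp1 and Ppp1r15a, and under 4000 UMIs Cxcl3, Il31ra, Csrnp1 and Nr4a1 were among the highest. Cxcl3, an attractant close to Cxcl2, was at 2664 CPM in PBS under 4000 UMIs and at 38.5, 169, 135 and 0 CPM in PD1+CTLA4, PD1+CD40, CD40+CTLA4 and Triplet. Nr4a1, an immediate early nuclear receptor, was at 1830 CPM in PBS and 208, 52.7, 66.2 and 94.0 CPM in the treated libraries. Junb was at 10627 CPM in PBS and 2473 to 3477 CPM in the treated libraries, and in T cell barcodes at 2300 CPM against 327 to 402 CPM. Junb was thus high in PBS in T cells as well. Over all members the genes lowest in PBS were Acp5, Ctsk, Chchd2, Hist1h2bc and Ndufa5, and under 4000 UMIs Ccl5, Hist1h2bc, Cxcl10, Gbp5 and Gbp7. Hist1h2bc, a histone and the one on both lists, was at 12.5 CPM in PBS and 266 to 569 CPM in the treated libraries under 4000 UMIs.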

How the data were processed

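Droplet RNA sequencing of 5 pooled libraries gave UMI counts per gene and barcode, deposited by the authors without normalization. Per the file headers the counts were made with Cell Ranger 4 for PBS and Cell Ranger 7.1.0 for the treated libraries, and the submitters' processing notes name genome build mm9. Strand and annotation settings are not given in the sources used here. Each table holds 32285 genes. Every detected barcode is listed for PBS and for CD40+CTLA4, but only barcodes past a cell call for the rest, so 1 filter was applied to all 5. The filter cannot restore barcodes that the cell call left out. No doublet caller was run. Barcodes of 4000 or more UMIs were instead left out for most levels and gene counts of the Results. This limit was not planned and was chosen after seeing the data. The planned values are those over all members.

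Counts of a library's neutrophil barcodes were summed and scaled to CPM. A gene was measured in a comparison at a mean of at least 50 CPM and at least 10 UMIs in the 2 libraries, and log2 folds use (CPM + 20), which understates the change of low genes. With 1 library per group there was no test, and called means at least 2-fold. Levels have exact Poisson, shares exact Clopper-Pearson and ratios exact conditional 95% intervals, which cover counting error only. A count of 0 allows up to 3 counts. Macrophage barcodes had at least 10 C1q UMIs, at most 1 Cd3 UMI and under 10 S100a8 and S100a9 UMIs. T cell barcodes had at least 3 Cd3 UMIs, at most 2 C1q UMIs and the same S100 limit.

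The neutrophil rule, the 25 gene lists and the marker lists were chosen with earlier results of these data known; 8 of the listed symbols are absent from the files. Named genes were the 5 highest and 5 lowest folds per comparison of treated libraries among genes with at least 100 CPM, 15 UMIs and 8 holding barcodes in the higher library. Their ratio interval had to exclude 1, and their level there could be at most 5 times below that in macrophage, T cell and tumour barcodes. For PBS they were the 5 widest gaps per direction to all 4 treated libraries. Mitochondrial, ribosomal, receptor, immunoglobulin, haemoglobin, predicted, Xist, Tsix, Y-linked and rule genes were left out, and up to 4 members per list, the identity genes and the antibody targets were added. Other genes named from the lists were chosen after their values were seen. Among the anti-CD40 libraries, of the genes so named only those that the rule also picks under 4000 UMIs are given. Some genes that the rule names are not reported here.

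Shares of barcodes holding a gene were taken after thinning each barcode to 500 UMIs. Promoter sequences are the 250 bases before a gene's start from RefSeq, build GRCm38.p6, matched by symbol. The alternatives were 1000 UMIs and 500 genes, 20% mitochondrial UMIs, S100 minimums of 20 and of 30 with 4 receptor UMIs, no C1q or Cd3 UMI with at most 1 UMI from each of the keratin, B cell and cytotoxic gene pairs, the top 5% of members by UMIs left out, pseudocounts of 5 and 100, no low-count filter, scaling by the median gene ratio, members shared with another library left out, equal weight per barcode and thinning. The fold script was tested on simulated data. Python 3.11.15, NumPy 2.4.6, SciPy 1.17.1, pandas 2.3.3 and Matplotlib 3.10.9 were used.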

Additional observations from a re-analysis of the deposited data

How the results depend on the processing

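No paired analysis was possible because each group had 1 library. Under the alternatives, 87 recomputed gene counts stayed within 1.5 times of those over all members and 43 did not, and 29 of 104 gene differences past 2-fold stayed past it under each of 14 alternatives. Leaving out barcodes of 4000 or more UMIs moved 53 gene differences across 2-fold. The type I interferon median over all members, 0.94 for PD1+CD40 and 1.00 for CD40+CTLA4, each against PD1+CTLA4, ranged over the alternatives from 0.59 to 1.48 and from 0.63 to 1.40, and that of Triplet from -0.14 to 0.41.

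The neutrophil percentage of neutrophil and macrophage barcodes moved outside its interval under these settings. At 20 S100 UMIs it was 6.11 in PBS and 7.25 in PD1+CD40. At 30 with 4 receptor UMIs it was 4.53 in PBS, 6.43 in PD1+CTLA4, 4.40 in PD1+CD40, 3.55 in CD40+CTLA4 and 2.80 in Triplet. At 1000 UMIs it was 5.70 in PBS, 4.95 in PD1+CTLA4, 4.71 in PD1+CD40 and 4.40 in CD40+CTLA4. With strict limits on other lineages it was 5.14, 6.94, 5.09, 3.87 and 2.50 in PBS, PD1+CTLA4, PD1+CD40, CD40+CTLA4 and Triplet. Under 4000 UMIs it was 8.44 in PD1+CTLA4. Triplet stayed the lowest where its value is given.

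Genes past 2-fold over all members numbered 264 (PD1+CD40), 235 (CD40+CTLA4) and 216 (Triplet) against PD1+CTLA4, and these moved to 430, 398 and 336 under 4000 UMIs, to 557, 554 and 746 with no low-count filter and to 66, 61 and 44 with a pseudocount of 100. Thinning gave 513 for PD1+CD40 and 483 for CD40+CTLA4, a pseudocount of 5 gave 371 for CD40+CTLA4, and for Triplet the 30-UMI limit gave 330 and the strict limits 388. Triplet against PD1+CD40 (145) and CD40+CTLA4 (151) moved to 275 and 303 under 4000 UMIs, 402 and 387 with no filter, 40 and 35 with a pseudocount of 100, 237 and 233 with 5, 227 and 229 with equal weight, 504 and 323 with strict limits and 441 and 419 with thinning. Triplet against PD1+CD40 was 249 without the top 5%. CD40+CTLA4 against PD1+CD40 (23) moved to 43 with the 30-UMI limit, 49 with no filter, 8 with a pseudocount of 100, 68 with strict limits and 96 with thinning. Against PBS, the 934 (PD1+CTLA4), 622 (PD1+CD40), 624 (CD40+CTLA4) and 858 (Triplet) genes became 2128, 1095, 1133 and 1690 with no filter and 358, 299, 281 and 367 with a pseudocount of 100, and Triplet became 467 with thinning. Pseudocount and filter change these counts by construction; the cause of the others was not tested.

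Called log2 differences that changed sign were few. In Triplet against PD1+CTLA4, Bst2 became 1.56 under 4000 UMIs, 0.86 when these were thinned, 0.048 when all were thinned and 0.70 with strict limits. There, Cstdc5 became -0.23 and Krt18 0.060 with strict limits, S100a4 -0.029 without the top 5%, Itga4 0.036 and Mmp12 -0.84 under 4000 UMIs with thinning, and the cell cycle median -0.20 at 20 S100 UMIs. In PD1+CD40 against PD1+CTLA4, Ccl17 became -0.78 with strict limits, Tcf4 0.017 under 4000 UMIs and 0.15 with thinning as well, and Fyn 0.73 there. In CD40+CTLA4 against PD1+CTLA4, Ccl17 became -0.18 with the 30-UMI limit, Krt18 0.020, Ctsk -1.20 and Acp5 -1.20 with strict limits, and Ccl5 0.26 under 4000 UMIs with thinning. Acp5 in CD40+CTLA4 against PD1+CD40 became -1.32 with strict limits. The cause of these was not tested.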
